A study of Mus musculus with 8 samples.

Results

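Smooth muscle contractile genes encode the filament proteins with which smooth muscle cells shorten, and cultured fibroblasts make several of them in their stress fibres. The 10 genes described here (Acta2, Actg2, Tagln, Cnn1, Tpm1, Tpm2, Lmod1, Myl9, Myh11 and Des) were taken by name from a table of 23235 gene symbols, and all 10 were found. RNA had been sequenced from mouse embryonic fibroblasts of strain C57BL/6, 8 libraries in 4 groups of 2. Control cells had 1 floxed and 1 null allele of Taf4, whose product is part of TFIID, the complex that sits at core promoters. A second label field gives the same cells as wild type. Knockout cells were labelled Taf4 -/-. The remaining groups were clones 1 and 2 of Taf4 -/- cells that stably expressed full-length human TAF4 (wild-type rescue), and clones 1 and 2 that expressed human TAF4 without its TAFH domain (TAFH-deleted rescue). All 4 groups grew in the same medium with serum. The labels do not name the promoter that drove the transgenes or say whether clones and libraries were grown as separate cultures. The p-values therefore cover just the spread among these samples, which may be technical.

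In these filaments, myosin heads pull on actin when the myosin regulatory light chain is phosphorylated, and tropomyosin, calponin and transgelin lie along the actin. Many of the genes are activated by serum response factor (SRF) and its myocardin-family cofactors, which act through a promoter element called the CArG box. In fibroblasts the actin Acta2 and the actin binders are known from myofibroblasts, while the smooth muscle myosin Myh11 and the intermediate filament desmin are usually seen in differentiated muscle. The title of the series ties TAF4 to E proteins, which bind E-boxes.

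Levels are deposited FPKM, which count fragments relative to transcript length and library size. Differences were taken on log2(FPKM + 1), where changes of weakly expressed genes look smaller than they are. The steps between low FPKM values imply library totals between 1.43e+07 and 1.73e+07 fragments. The libraries of each group were compared with sampling noise in single-transcript genes with 2 to 7 fragments over the pair. The control libraries differed by less than this noise, with a chi-square per gene of 0.746 ± 0.0289 (SE, 1215 genes). So did the knockout libraries, with 0.596 ± 0.0268 (1041 genes). Each pair was therefore averaged and counted as 1 sample. The wild-type rescue clones stood at 1.40 ± 0.0403 and the TAFH-deleted clones at 1.75 ± 0.0503. Taf4a, the mouse Taf4 gene, was between 11.1 and 11.5 FPKM in the control libraries, between 12.4 and 12.5 in the libraries labelled knockout and between 14.5 and 19.2 in the rescue clones, so it does not check the labels.

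The promoters of 7 of the 10 members were found in a RefSeq table of the GRCm38.p6 build. Those of Tagln, Myh11 and Actg2 were not found there and could not be searched. That build differs from the mm9 build of the expression table, and no coordinate was converted. In the 250 bases before the start, the CArG box was searched as an inner run of 6 bases with CC before it and GG after it. With all 6 inner bases A or T, 1.47% of 32851 promoters of this length held a match, and with at most 1 other inner base 8.59% did. The E-box, searched as CANNTG, was in 66.2% of them. Both motifs read the same pattern on either strand. Acta2 and Myl9 are shown because they were the members with a CArG match among the 7 searched. Cnn1 and Lmod1 are shown because their levels varied most between libraries. Capitals mark CArG and E-box matches, and sequences run 5′ to 3′ toward the start.

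Acta2, chr19:34255374-34255623, minus strand: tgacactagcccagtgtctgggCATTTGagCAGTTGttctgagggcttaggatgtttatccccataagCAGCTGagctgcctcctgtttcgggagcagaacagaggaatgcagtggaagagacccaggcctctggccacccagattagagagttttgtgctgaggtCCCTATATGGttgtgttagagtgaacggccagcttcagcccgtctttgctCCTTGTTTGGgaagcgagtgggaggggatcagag
Myl9, chr2:156775214-156775463, plus strand: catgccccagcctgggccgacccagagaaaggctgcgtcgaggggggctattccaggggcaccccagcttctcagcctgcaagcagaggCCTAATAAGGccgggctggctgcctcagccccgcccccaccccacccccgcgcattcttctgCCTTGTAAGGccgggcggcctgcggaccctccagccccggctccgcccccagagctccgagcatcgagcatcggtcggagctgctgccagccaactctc
Cnn1, chr9:22099003-22099252, plus strand: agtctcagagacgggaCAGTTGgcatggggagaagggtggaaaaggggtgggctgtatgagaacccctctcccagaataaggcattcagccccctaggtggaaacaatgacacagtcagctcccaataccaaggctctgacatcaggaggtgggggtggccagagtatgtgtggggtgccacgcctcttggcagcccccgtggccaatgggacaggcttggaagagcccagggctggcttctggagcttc
Lmod1, chr1:135324563-135324812, plus strand: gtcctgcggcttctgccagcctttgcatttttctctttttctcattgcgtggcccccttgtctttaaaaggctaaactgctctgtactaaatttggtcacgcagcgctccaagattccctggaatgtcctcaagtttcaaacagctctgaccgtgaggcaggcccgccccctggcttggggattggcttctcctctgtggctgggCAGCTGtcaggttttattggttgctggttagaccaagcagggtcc

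Acta2 held the CArG matches CCCTATATGG and CCTTGTTTGG, each with 1 other inner base, starting 84 and 34 bases before the start. Its 3 E-boxes, in capitals above, started 228, 220 and 182 bases before the start. Myl9 held CCTAATAAGG, an exact match 161 bases before the start, and CCTTGTAAGG with 1 other inner base at 99 bases, and no E-box in this window. Neither Cnn1 nor Lmod1 held a CArG match in this window. Cnn1 held the E-box CAGTTG at 234 bases and Lmod1 the E-box CAGCTG at 45 bases. Tpm1, Tpm2 and Des had E-boxes too, so 6 of the 7 promoters held one. A match in the sequence is a description and does not show binding.

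The 10 genes differed widely in level. In FPKM, which are per length, the order in control was Tpm1, Acta2, Myl9, Tagln, Tpm2, Cnn1, Lmod1, Actg2, Des and Myh11, from 157.8 to 0.0815 FPKM. Tagln, at 84.1 FPKM, and Myl9, at 97.8, were neighbours in that order in control but changed places in knockout, where Tagln was at 98.9 and Myl9 at 95.3. A filter of at least 1 FPKM in at least 2 libraries left 8 of the 10 for testing, since Myh11 and Des did not reach it in any library.

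**Figure D1:**
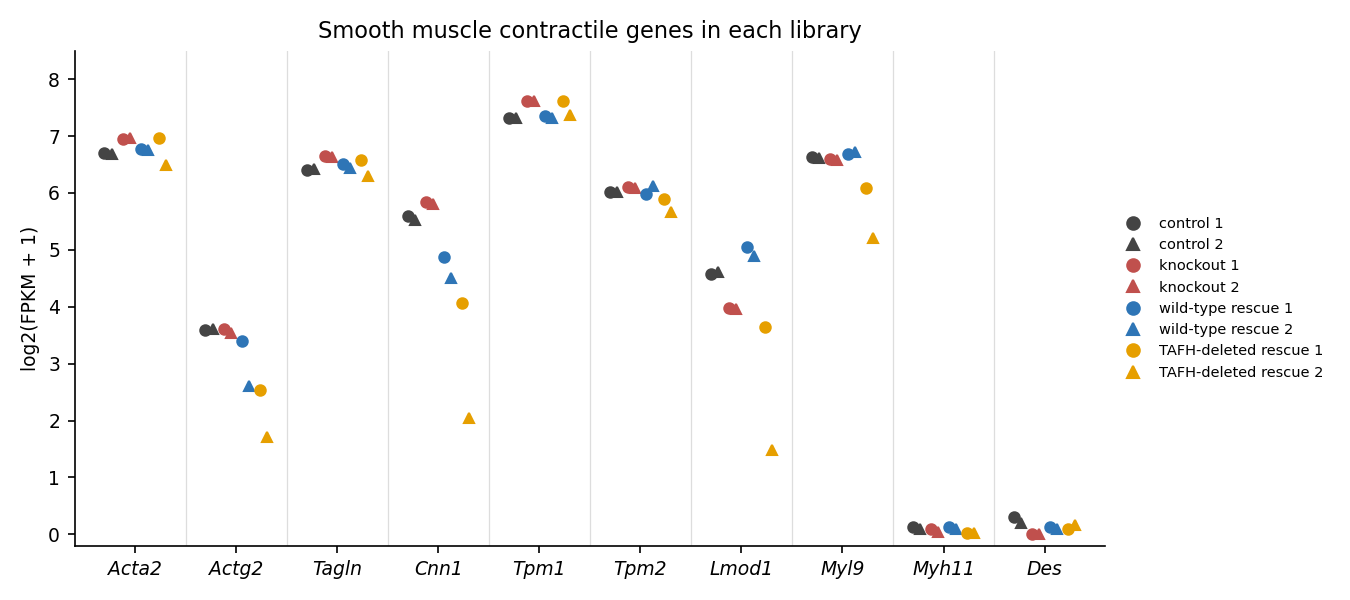
Level of the 10 genes in each library, on the log2(FPKM + 1) scale. Each point is 1 library, circles are replicate or clone 1 and triangles are replicate or clone 2. In Cnn1, Lmod1, Myl9 and Actg2 the lowest point is TAFH-deleted clone 2, with 3.11, 1.78, 35.9 and 2.27 FPKM, and Myh11 and Des lie near 0 throughout.

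The actin genes behaved differently from each other. Acta2 (chromosome 19, 34315580 to 34329826, mm9), smooth muscle alpha-actin, was at 103 and 102 FPKM in control, 123 and 123 in knockout, 108 and 107 with wild-type rescue, and 123 and 88.4 with TAFH-deleted rescue. The TAFH-deleted clones therefore gave both a value as high as knockout and the lowest value of all 8 libraries. Actg2 (chromosome 6, 83462902 to 83486245), smooth muscle gamma-actin, was at 11.005 and 11.2 FPKM in control, 11.2 and 10.6 in knockout, 9.49 and 5.06 with wild-type rescue, and 4.80 and 2.27 with TAFH-deleted rescue. Control and knockout overlapped, and every rescue clone lay below them. Actin genes are near-identical over long stretches, and the cytoplasmic actin Actg1, which cells make in abundance, was listed between 1.35 and 1.68 FPKM in all 8 libraries. How reads shared by several actin genes were assigned is not given in the sources used here, so the level of any actin gene is uncertain.

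Of the actin binders, Tagln and Tpm2 kept within a narrow range while Cnn1 did not. Tagln, transgelin, was at 83.7 and 84.6 FPKM in control, 99.2 and 98.7 in knockout, 89.6 and 85.9 with wild-type rescue, and 94.4 and 77.8 with TAFH-deleted rescue. Its highest library stood 1.28-fold above its lowest. The locus listed for Tagln (chromosome 9, 45671773 to 45744141) covers 72369 bases and is also listed for Pcsk7 and Rnf214, so overlapping transcripts may share reads with it. Tpm2, beta-tropomyosin (chromosome 4, 43527583 to 43536260), was at 63.7 and 64.1 FPKM in control, 67.6 and 67.2 in knockout, 62.0 and 68.8 with wild-type rescue, and 58.8 and 49.986 with TAFH-deleted rescue. Both TAFH-deleted clones were below all other libraries.

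Cnn1 (chromosome 9, 21903696 to 21913665), calponin 1, which inhibits the actomyosin ATPase, was at 47.1 and 44.9 FPKM in control and at 56.7 and 55.3 in knockout. Wild-type rescue gave 28.3 and 21.8 FPKM, and TAFH-deleted rescue 15.8 and 3.11. All 4 rescue clones were below control and knockout, and the TAFH-deleted clones were below the wild-type clones. Between the highest and the lowest library lay 18.2-fold.

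Lmod1 (chromosome 1, 137221389 to 137264642), leiomodin 1, which nucleates actin filaments in smooth muscle, followed another order. It was at 23.0 and 23.4 FPKM in control, 14.7 and 14.6 in knockout, 32.0 and 28.5 with wild-type rescue, and 11.5 and 1.78 with TAFH-deleted rescue. Wild-type rescue lay above control, control above knockout, and knockout above both TAFH-deleted clones, with no overlap. The range over libraries was 18.0-fold.

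Myl9 (chromosome 2, 156601199 to 156607393), the regulatory light chain of smooth muscle myosin, was at 98.2 and 97.4 FPKM in control, 96.2 and 94.5 in knockout, 102 and 104 with wild-type rescue, and 67.4 and 35.9 with TAFH-deleted rescue. Only the TAFH-deleted clones stood apart from the other 6 libraries, which lay between 94.5 and 104 FPKM. Its heavy chain partner in smooth muscle, Myh11 (chromosome 16, 14194619 to 14291501), was between 0.0193 and 0.0917 FPKM, which corresponds to between 2 and 10 fragments per library. The heavy chain paralogs outside smooth muscle Myh9 and Myh10 were between 68.8 and 82.9 FPKM and between 31.2 and 52.3 FPKM. Des, desmin (chromosome 1, 75356918 to 75364290), was listed at 0 in both knockout libraries and between 0.0608 and 0.238 FPKM in the others, at most 8 fragments. Myocd, which encodes the smooth muscle SRF cofactor myocardin, was between 0.0860 and 0.168 FPKM. Myh11, Des and Myocd, which mark differentiated smooth muscle, were thus at or near 0 in every library. Fibroblast markers were mixed. The 11 genes summed to between 568 and 718 FPKM, most of it from collagens, Vim and Fn1, while Thy1 was at most 0.0773 FPKM, Fap at most 0.119 and Lum at most 3.03. Dcn was at 24.0 and 24.4 FPKM in control, 0.642 in both knockout libraries, 19.1 and 11.6 with wild-type rescue, and 0 and 0.0387 with TAFH-deleted rescue.

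Tpm1 (chromosome 9, 66870399 to 66897020), alpha-tropomyosin, has 10 deposited transcripts, whose sum was 158 and 158 FPKM in control, 196 and 195 in knockout, 162 and 159 with wild-type rescue, and 196 and 164 with TAFH-deleted rescue. These transcripts share exons, so their separate levels are estimates by the authors' software. NM_001164254 was at 14.9 and 14.2 FPKM in control, 20.1 and 18.2 in knockout, 7.20 and 4.88 with wild-type rescue, and 17.2 and 20.1 with TAFH-deleted rescue. It made up 4.44% and 3.07% of Tpm1 in the wild-type rescue clones and between 8.74% and 12.2% in the other 6 libraries. NM_001164249 made up 14.1% of Tpm1 in TAFH-deleted clone 2 and between 21.7% and 26.3% in the other 7 libraries. NM_001164254 was named after its values were seen, and so was NM_001164249.

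**Figure D2:**
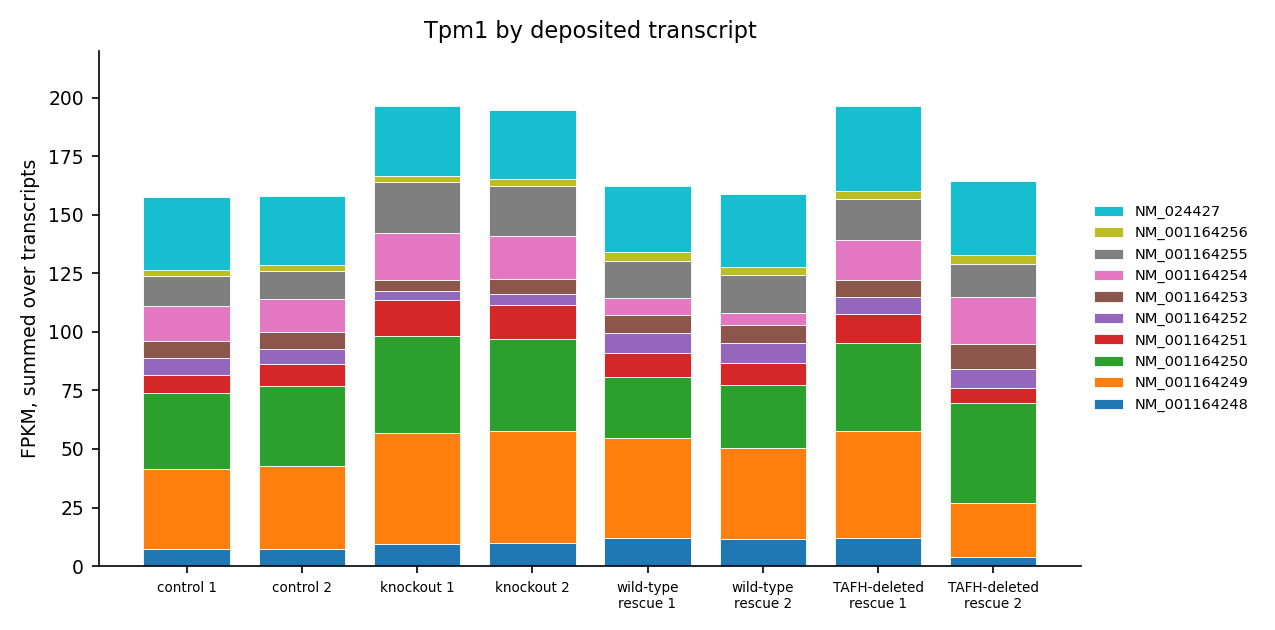
Tpm1 in each library, split by deposited transcript. Bar segments are FPKM of 1 transcript and bar height is the sum, which lies between 158 and 196 FPKM. The segment of NM_001164254 is smallest in the wild-type rescue clones, at 7.20 and 4.88 FPKM.

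For Acta2, Tagln, Tpm1 and Cnn1, implied fragments differed less between control and knockout than FPKM did. For Tpm2, Myl9, Actg2 and Lmod1 they differed more. Implied fragments are computed from FPKM, transcript length and library total, so the lower totals in knockout lower them for every gene. The fragments implied by the FPKM can be set against the number of possible read starts, each base of the transcript on each strand. The percentage is the share of starts in use only if every fragment has a start of its own, and whether duplicate reads were removed is not given in the sources used here. Acta2 had fragments equal to between 77.9% and 82.0% of its 3560 possible starts in 7 libraries and to 63.6% in TAFH-deleted clone 2. Its implied fragments were 2814 and 2786 in control and 2866 and 2880 in knockout, while its FPKM were 102.81 on average in control and 123.1 in knockout. For Tagln the percentage was between 55.0% and 66.6%, with 1995 and 2023 fragments in control and 2030 and 2020 in knockout. The 10 Tpm1 transcripts together had between 3701 and 3973 fragments, a range of 1.07-fold over 8 libraries. Implied totals of the control libraries were 1.73e+07 fragments each, and those of knockout 1.48e+07. Myl9 had 1489 and 1481 fragments in control and 1252 and 1230 in knockout. Tpm2 had 2083 and 2100 in control and 1897 and 1885 in knockout, and Actg2 211 and 216 against 185 and 175. For none of these genes was it tested whether a limit on reads per position and the library total set the FPKM differences.

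**Figure D3:**
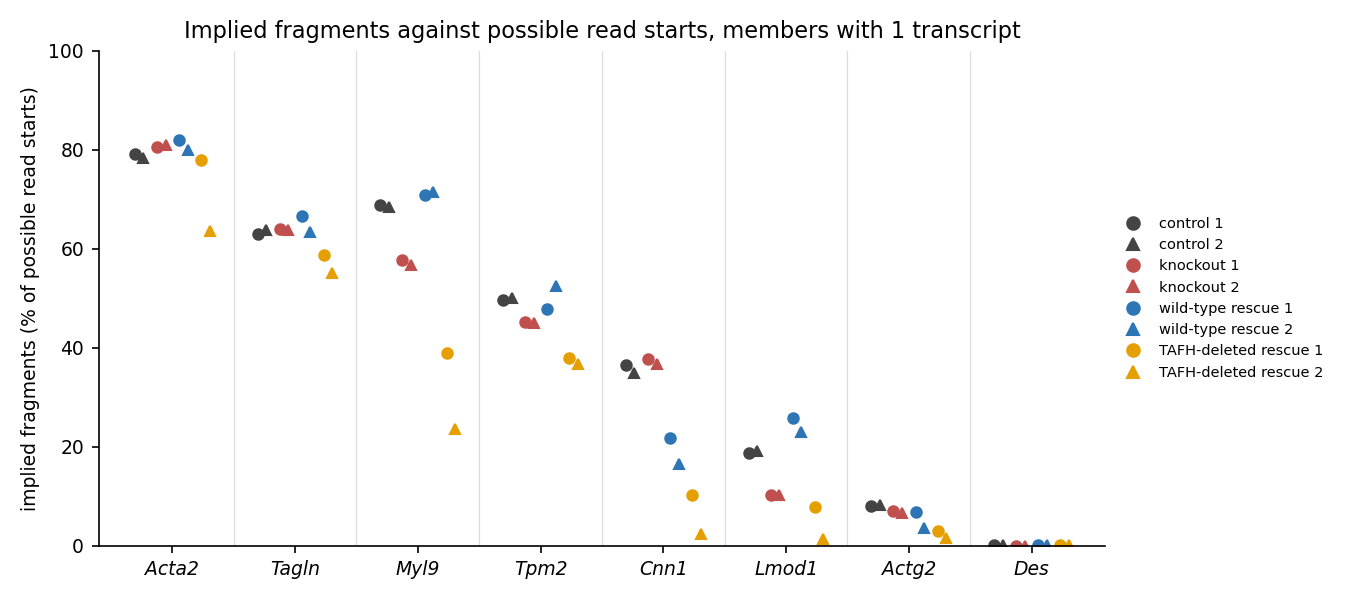
Implied fragments as a percentage of possible read starts, for the 8 members with a single transcript. Each point is 1 library, circles are replicate or clone 1 and triangles are replicate or clone 2. Acta2 lies between 63.6% and 82.0%, while Cnn1, Lmod1 and Actg2 stay at or below 37.6%.

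The same percentage was lower for the members that varied most. It was between 2.26% and 37.6% for Cnn1, between 1.37% and 25.9% for Lmod1, and between 1.56% and 8.21% for Actg2. Their order of libraries in fragments can be compared with that in FPKM: Cnn1 had 1449 and 1386 fragments in control, 1496 and 1459 in knockout, 861 and 656 with wild-type rescue, and 403 and 90 with TAFH-deleted rescue. Lmod1 had 1481 and 1511 fragments in control, 812 and 809 in knockout, 2040 and 1803 with wild-type rescue, and 614 and 108 with TAFH-deleted rescue. For Myl9 the percentage was between 56.8% and 71.4% in control, knockout and wild-type rescue, and 39.0% and 23.6% in the TAFH-deleted clones.

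The first comparison, knockout against control, asks how the cells labelled Taf4 -/- differ from control cells in these genes. Each side counts as 1 sample, so what loss of Taf4 and what other differences between the cultures contribute cannot be told apart. Lmod1 was 14.6 FPKM in knockout and 23.2 in control, a log2 difference of -0.63 ± 1.08 (SE, adjusted p = 0.861, limma). Cnn1 was 56.0 against 46.0 FPKM, a difference of 0.28 ± 1.02, with a 95% interval from -2.53 to 3.08. The difference was 0.26 for Acta2, 0.23 for Tagln, 0.31 for Tpm1 and 0.08 for Tpm2, and -0.04 for Myl9 and -0.02 for Actg2. The signs of the smallest differences depended on scaling. Myl9 and Actg2 were positive, at 0.12 and 0.13, after scaling each sample to its genes of moderate level, and under quantile normalization Tpm2 was -0.0055 and Actg2 0.16. That scaling to moderate genes moved the median of all 12025 genes from -0.03 to 0.12. The median of the 8 tested members was 0.15 as deposited, and 3 of them were below 0, against 54.9% of all genes. Knockout libraries lay wholly below control in 2 members (Myl9 and Lmod1), against 49.6% of genes, and wholly above in 5, against 40.3%. On the log2(FPKM + 1) scale, on which all 2-fold counts here were made, none was 2-fold lower (5.76% of genes) or 2-fold higher (0.798%).

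No member passed the limma test in this comparison at an adjusted p of 0.05, and neither did any of the 12025 genes (0%). At an unadjusted p under 0.05 there were 0 members and 9.21% of all genes. With the pairs averaged, each side is 1 sample, taken to scatter as the rescue clones do. The 0 depended on the TAFH-deleted clones, which are not in this comparison. Without TAFH-deleted clone 1, Acta2, Tagln and Tpm1 were higher and Lmod1 lower, among 22.6% of genes called, and without clone 2 the same 4 members were called among 22.1%. The authors' deposited table, from Cuffdiff, marks 8 of 17 tested member transcripts as changed, among 53.8% of all tested transcripts. They belong to Acta2 (q = 1.76e-11), Tagln (q = 4.46e-07), Cnn1 (q = 2.72e-07), Lmod1 (q listed as 0) and Tpm1.

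Wild-type rescue against knockout asks how the clones with full-length TAF4 differ from knockout cells in these genes. The labels name the rescue samples as clones and the knockout samples as replicates. What TAF4 and what clone derivation contribute therefore cannot be told apart. Lmod1 was 30.2 ± 2.43 FPKM (SD, n = 2) with wild-type rescue and 14.6 in knockout, a log2 difference of 1.00 ± 0.94 (SE, adjusted p = 0.706, limma). Cnn1 went the other way, at 25.0 ± 4.61 against 56.0 FPKM, a difference of -1.14 ± 0.89 (adjusted p = 0.634). Both clones lay on the same side of knockout for both genes. Actg2 was 7.27 ± 3.13 against 10.9 FPKM, and Myl9 103 ± 1.22 against 95.3. The differences of Acta2, Tagln and Tpm1 were -0.19, -0.17 and -0.28, and that of Tpm2 was -0.05 as deposited and 0.09 under quantile normalization. Cnn1 was the 1 member at least 2-fold lower, among 1.1% of genes, and none was at least 2-fold higher on this scale, among 2.85%. Lmod1 lay at that limit, since its FPKM ratio was 2.07 and its fold on the log2(FPKM + 1) scale 1.99. The difference was below 0 in 6 of 8, against 54.7% of genes. In 5 members both clones were below both knockout libraries (45.2% of genes), and in Myl9 and Lmod1 both were above (36.4%).

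Limma called 0 of the 8 members and 0% of genes in this comparison, and 0 members and 13.3% of genes had an unadjusted p under 0.05. Without TAFH-deleted clone 1 it called 26.7% of genes, with Lmod1 higher and Acta2, Tagln, Cnn1 and Tpm1 lower. Without TAFH-deleted clone 2 the same 5 members were called, among 26.6%. The authors' deposited table marks 4 member transcripts, among 25.8% of all tested transcripts: Cnn1 and Lmod1, both with q listed as 0, and NM_001164252 (q = 0.0367) and NM_001164254 (q = 0.00841) of Tpm1. This comparison shares the knockout sample with the first and the next, so their values are not independent.

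TAFH-deleted rescue against knockout asks the same of the clones with the shortened TAF4, and here too clone derivation cannot be told apart from the transgene. The difference was below 0 in all 8 tested members, against 44.2% of all genes, and 6 of the 8 had both clones below both knockout libraries, against 23.5%. For Acta2 and Tpm1 that sign came from clone 2 alone: against knockout, clone 1 stood at 0.0033 and 0.0056. Cnn1 was 9.48 ± 9.0045 FPKM (SD, n = 2) against 56.0, a log2 difference of -2.78 ± 0.89 (SE, adjusted p = 0.740, limma). Clone 1 stood at -1.76 and clone 2 at -3.79. Actg2 was 3.53 ± 1.78 against 10.9 FPKM, a difference of -1.46 ± 0.53 (adjusted p = 0.752), with -1.04 in clone 1 and -1.87 in clone 2. Lmod1 was 6.65 ± 6.88 against 14.6 FPKM, with -0.32 and -2.49 in the clones, and Myl9 was 51.6 ± 22.3 against 95.3, with -0.49 and -1.39. Cnn1, Actg2 and Lmod1 were at least 2-fold lower, among 2.94% of genes. None was 2-fold higher (0.715% of genes), and none had both clones above knockout (31.4%).

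Again limma called 0 members and 0% of genes, while Cnn1 and Actg2 had an unadjusted p under 0.05 (0.0335 and 0.0482), among 6.56% of genes. Without clone 1 the 8 tested members were all called lower, among 33.4% of genes, and without clone 2 Cnn1 and Myl9 were, among 3.81%. A lone TAFH-deleted clone is then assumed to vary like the wild-type clones. The percentages given without clone 1 and without clone 2 count genes called in either direction, not lower alone. In the authors' deposited table Cnn1 (q = 0.000895) was the 1 member transcript marked, among 0.957% of tested transcripts.

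**Figure D4:**
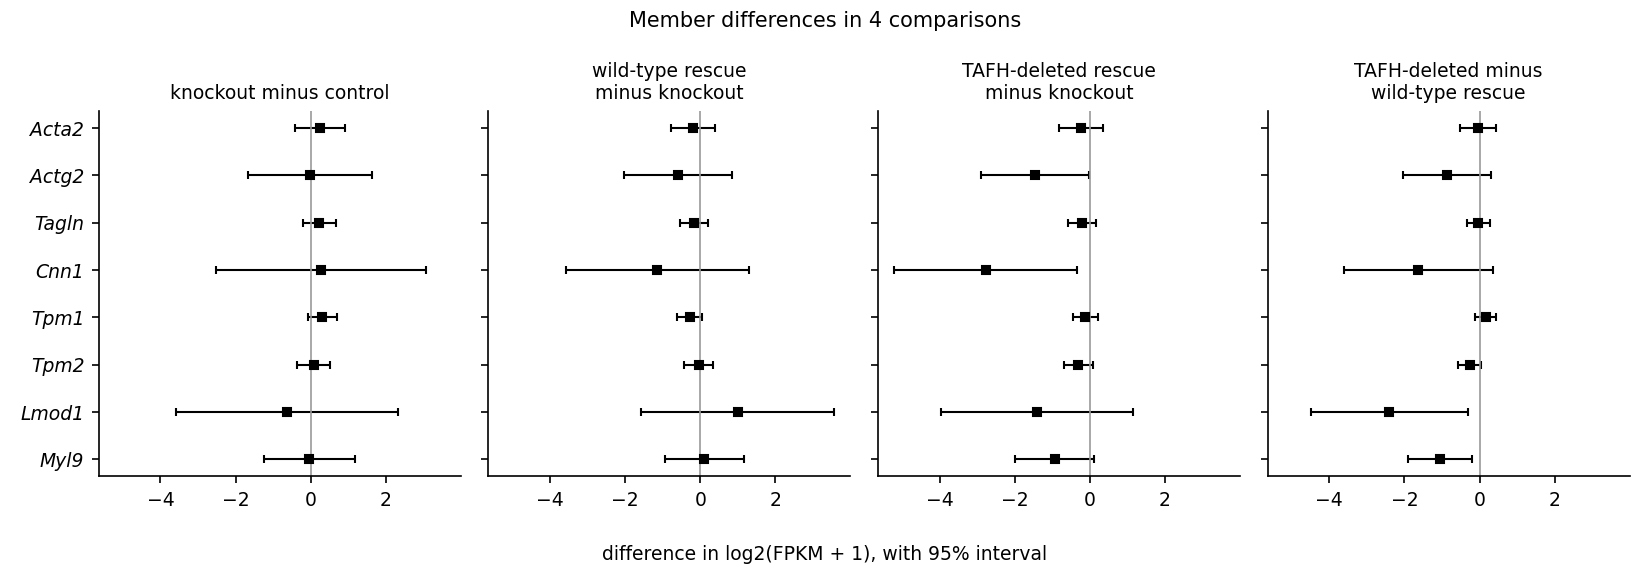
Differences in log2(FPKM + 1) of the 8 tested members in 4 comparisons. Squares are the fitted difference and bars its 95% interval from limma. Intervals are wide for Cnn1 and Lmod1 and narrow for Tagln and Tpm1. In the last panel Lmod1 stands at -2.40 and Cnn1 at -1.63.

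The direct comparison of TAFH-deleted with wild-type rescue, 2 clones against 2, asks whether clones with the 2 forms of TAF4 differ in these genes. Clone derivation cannot be told apart from the form here either, and levels of the human transgenes were not measured here. Lmod1 was 6.65 ± 6.88 FPKM (SD, n = 2) with the deleted form and 30.2 ± 2.43 with the full-length form. The fitted log2 difference was -2.40 ± 0.77 (SE, adjusted p = 0.143, limma). Myl9 was 51.6 ± 22.3 against 103 ± 1.22, a difference of -1.05 ± 0.31 (adjusted p = 0.129). Cnn1 was 9.48 ± 9.0045 against 25.0 ± 4.61, a difference of -1.63 ± 0.72 (adjusted p = 0.226). Those 3 were at least 2-fold lower on the log2(FPKM + 1) scale, among 5.94% of genes. The set depends on the scale: in plain FPKM the ratio was 0.486 for Actg2, which is not among them, and 0.501 for Myl9, which is. Actg2 had a difference of -0.87 ± 0.43 and Tpm2 of -0.26 ± 0.11, and in Actg2, Cnn1, Lmod1, Myl9 and Tpm2 both TAFH-deleted clones were below both wild-type clones. That made 5 of 8, against 26.4% of all genes, while Tpm1 alone had both clones above (37.1%). None was 2-fold higher (2.6% of genes), and 7 of 8 were below 0, against 43.9%. The members' median was -0.57, beside 0.06 over all genes.

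The clones of the deleted form differed from each other in each of these genes. Relative to the wild-type average, Lmod1 stood at -1.32 in clone 1 and -3.49 in clone 2, Cnn1 at -0.62 and -2.65, and Myl9 at -0.61 and -1.50. Acta2 stood at 0.20 and -0.28 and Tagln at 0.10 and -0.17, so the clones lay on opposite sides of the wild-type mean. Tpm1 stood at 0.29 and 0.04. For Acta2 the 95% interval of the difference between forms ran from -0.52 to 0.43, and for Tagln from -0.34 to 0.27.

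In this comparison limma called 2.62% of the 12025 genes, 1.69% lower and 0.931% higher, and 0 of the 8 members, 2 of which (Lmod1 and Myl9) had an unadjusted p under 0.05, beside 28.8% of all genes. Without TAFH-deleted clone 1, limma called 7 members lower, all but Tpm1, among 55.9% of genes. Without TAFH-deleted clone 2 it called Cnn1, Myl9 and Lmod1 lower and Acta2 and Tpm1 higher, among 40% of genes. With the 8 libraries fitted as separate samples, Tpm1 was called higher in knockout than control (23.8% of genes called), Tpm1 lower with wild-type rescue than in knockout (24.9%), Cnn1 lower with TAFH-deleted rescue than in knockout (8.93%), and Myl9 and Lmod1 lower between the forms (38%). Adding the replicate number as a block left the first call (16.8%) and the last pair (32.6%), and none in the middle comparisons (18.6% and 3.83%). The percentages of these 8-library fits, and those given without clone 1 or clone 2 of the deleted form, count genes called in either direction. Called lower between the forms were 1848 genes with 8 libraries and 1631 with the block. In bulk RNA, fewer cells with a transcript and less of it per cell cannot be told apart.

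Other genes of contraction and adhesion were taken from 4 lists, whose calls stand beside 1.69% of all genes called lower and 0.931% called higher between the forms. Of 18 tested genes that control contraction, 0 were called higher and 1 lower with the deleted form than with the full-length form, and 12 were below 0, with a median of -0.20. The one called was Prkg1, cGMP-dependent protein kinase 1, which relaxes smooth muscle. It was at 5.02 and 4.74 FPKM in control, 0.643 and 0.746 in knockout, 5.03 and 4.04 with wild-type rescue, and 0.304 and 0.400 with TAFH-deleted rescue, a log2 difference between forms of -2.03 ± 0.18 (SE, adjusted p = 0.0407, limma). With its longest transcript alone the difference was 0.24, so the direction depended on how its transcripts were combined. Cald1, Calm3, Ppp1cb and Calm2 were the most abundant of the list, between 55.3 and 108 FPKM over all libraries, and none was called.

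Among 29 genes of adhesions and stress fibres linked to SRF, 3 were called lower in the same comparison and 0 higher, beside 1.69% and 0.931% of all genes, with a median of -0.15. Itga1, the collagen-binding integrin alpha 1, was 16.5 ± 0.141 FPKM (SD, n = 2) with full-length TAF4 and 0.884 ± 0.602 with the deleted form (adjusted p = 0.0398, limma). Nexn, nexilin, an actin-binding protein, was 32.0 ± 0.753 against 10.7 ± 1.33 (adjusted p = 0.0407). Over 17 alternatives the adjusted p (limma) ran from 0.000122 to 0.537 for Itga1, from 0.000423 to 0.561 for Nexn, from 0.000104 to 0.537 for Gata6 and from 0.000435 to 0.537 for Prkg1. Cyr61, Csrp2, Fhl1 and Ctgf, the most abundant of the list, lay between 74.1 and 133 FPKM and were not called.

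Of 19 tested regulators of the programme, 1 was called lower between the forms, with a median of -0.10 for the list. This was Gata6, a transcription factor of smooth muscle and heart, at 11.5 and 11.8 FPKM in control, 0.678 and 0.655 in knockout, 9.95 and 9.83 with wild-type rescue, and 0.234 and 0.0412 with TAFH-deleted rescue (log2 difference -3.26 ± 0.19, SE, adjusted p = 0.0347, limma). Srf was between 30.8 and 36.7 FPKM in all libraries and was not called. Prrx1, Tgfb3, Elk3 and Mkl1, the most abundant of the list, lay between 39.5 and 78.1 FPKM. The 16 tested paralogs outside smooth muscle had a median of 0.14 and 0 calls, and Vim, Cnn2, Actb and Tagln2 were between 83.1 and 146 FPKM. Implied library totals were 1.71e+07 and 1.69e+07 fragments with wild-type rescue, and 1.43e+07 and 1.62e+07 with TAFH-deleted rescue. It was not tested whether these totals and a limit on reads per position set the differences of abundant genes in the lists. In the other 3 comparisons none of the 4 lists had a call by limma, nor did any gene of the table.

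**Figure D5:**
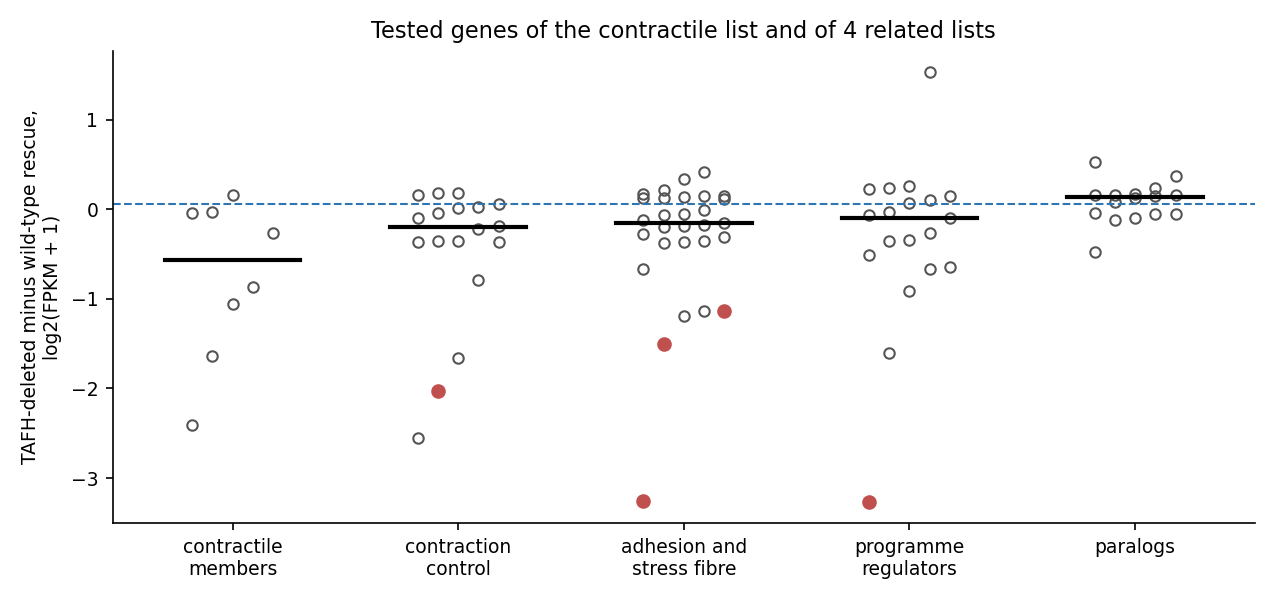
TAFH-deleted minus wild-type rescue in log2(FPKM + 1), for the tested genes of the contractile list and of 4 related lists. Each circle is 1 gene, filled where limma called it, black bars are list medians and the dashed line is the median of all 12025 genes, 0.06. Medians run from -0.57 in the contractile list to 0.14 in the paralogs.

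Markers of other cell types were read beside these values. Of 27 striated muscle markers, 20 were below 1 FPKM in every library and the list summed to between 23.5 and 33.6 FPKM. All 7 endothelial and all 4 epithelial markers were below 1 FPKM everywhere. The 5 leukocyte markers summed to between 6.47 and 7.76 FPKM in control, 3.31 and 3.36 in knockout, 6.07 and 10.6 in wild-type rescue, and 1.26 and 4.54 in TAFH-deleted rescue. The 6 pericyte markers summed to between 62.8 and 64.5 FPKM in control, 82.1 and 82.7 in knockout, 66.0 and 89.1 in wild-type rescue, and 50.4 and 69.1 in TAFH-deleted rescue. One of them, Rgs5, was at 19.6 and 17.8 FPKM in control, 2.69 and 2.90 in knockout, 35.1 and 17.0 in wild-type rescue, and 3.06 and 0.806 in TAFH-deleted rescue, lowest in the same library as Lmod1. The other expressed members had other orders. Mcam was at 32.1 and 32.1 FPKM in control, 64.5 and 65.0 in knockout, 48.3 and 44.8 with wild-type rescue, and 56.0 and 34.5 with TAFH-deleted rescue. Notch3 was at 3.70 and 4.0024 FPKM in control, 7.74 and 8.02 in knockout, 2.23 and 1.08 with wild-type rescue, and 4.66 and 0.294 with TAFH-deleted rescue. Cspg4 was highest, at 14.9 FPKM, in the library where Rgs5 was lowest. Kcnj8 and Abcc9 were below 1 FPKM throughout. Of the fibroblast markers, Pdgfra (adjusted p = 0.0366) and Dcn (adjusted p = 0.0366) were called lower by limma between the forms, beside 1.69% of all genes. With no filter on low values, limma called 0 genes in that comparison. Col1a1 was between 113 and 131 FPKM in all libraries. The part of a changed mix of cells in the levels of Lmod1, Cnn1, Myl9 and Actg2 was not tested.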

How the data were processed

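For the Illumina mRNA libraries, the submitters' processing notes list CASAVA 1.8, TopHat, Cufflinks, Cuffdiff and the mm9 build; other versions and options are not given in the sources used here. The authors deposited FPKM per RefSeq transcript and library (30028 transcripts), group means, and Cuffdiff p-values and q-values for 3 comparisons. Transcript lengths in bases are listed per the file headers.

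FPKM were summed per gene and chromosome, and 47 symbols changed to dates were restored by accession. Fragments were implied from the steps between low values (length less 204.1 bases). Limma-trend (limma 3.58.1, R 4.3.3) was fitted on log2(FPKM + 1) to 12025 genes that reached 1 FPKM in 2 or more libraries and had a transcript of at least 300 bases, in 6 samples (control and knockout pairs averaged), two-sided, Benjamini-Hochberg, threshold 0.05. The script was tested on simulated data. FPKM keep no count error. Alternatives changed pseudocount, filters, scaling, transcripts, averaging and samples.

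Members and lists were chosen with earlier results of these data known. All 10 members are named, and of each list the 4 genes of highest mean level and up to 4 called per comparison. The values of 1 called gene of the adhesion list are not reported here.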

Additional observations from a re-analysis of the deposited data

How the results depend on the processing

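Of 520 member differences recomputed under the alternatives, 461 kept their direction and their side of the threshold. Another 47 kept their direction and passed it, and 12 changed sign, whether or not they passed it. Over all genes, knockout against control gave 213 calls with no filter on low values, 2857 with 8 libraries, 108 with the longest transcript and 15 with short transcripts kept, against 0. Wild-type rescue against knockout gave 2998 with 8 libraries and 21 with short transcripts, and TAFH-deleted rescue against knockout 1074 and 13, both against 0. Between the forms, 315 calls became 142 with a pseudocount of 0.1, 0 with no filter (4341 unadjusted), 174 under quantile normalization, 4566 with 8 libraries, 55 with the longest transcript and 106 with short transcripts. Leaving out 1 library gave 0 to 2712, 0 to 3211, 0 to 4013 and 0 to 6722 calls in these 4 comparisons, and 0 to 4, 0 to 5, 0 to 8 and 0 to 7 members. With 8 libraries 1, 1, 1 and 2 members were called. The replicate block with 8 libraries gave 2019, 2232, 461 and 3921 genes and 1, 0, 0 and 2 members. Same-numbered clones of the 2 forms had a correlation of deviations of -0.08, so numbers do not pair the samples.

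Sign changes were as follows. In knockout against control, Tpm2 was -0.0055 and Actg2 0.16 under quantile normalization, Myl9 0.12 and Actg2 0.13 under scaling to moderate genes, and Actg2 0.015 without knockout replicate 2 (-0.059 without replicate 1). In wild-type rescue against knockout, Tpm2 was 0.085 under quantile normalization and 0.029 without wild-type clone 1 (-0.12 without clone 2). Without TAFH-deleted clone 2, Acta2 was 0.0033 and Tpm1 0.0056 against knockout, and Acta2 0.20 and Tagln 0.10 against wild-type rescue. Without clone 1 the same values were -0.47, -0.25, -0.28 and -0.17. With the longest transcript, Tpm1 was -0.31 and Prkg1 0.24 between the forms. The cause was not tested. The number of clones limits every difference.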
